A study of Mus musculus with 5 samples.

Results

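The nuclear lamina and the proteins that hold it to the inner nuclear membrane were examined in neural stem cells (NSCs) and STO cells by RNA-seq. The genes were taken by name: the lamin genes Lmna, Lmnb1 and Lmnb2, the lamin B receptor gene Lbr, the genes Emd, Tmpo, Lemd3 and Banf1 of the LEM-domain proteins and their chromatin partner, and the SUN genes Sun1 and Sun2. All 10 were found among the 24843 genes that remained after transcripts with the same symbol were summed, and all 10 passed the filter on low values. NSCs were primary cells of the embryonic mouse cortex, used at passages 5 to 8 and grown as a monolayer on laminin with EGF, bFGF, heparin and B27 (n = 2). STO cells are an immortal line of SIM mouse embryonic fibroblasts resistant to thioguanine and ouabain, used after more than 30 passages in serum-containing DMEM (n = 3). The strain label was C57BL/6 for both, though STO cells are named after SIM mouse embryos, so a shared strain is not certain. No sample carried a further treatment or engineered allele. Cell type, medium, passage and any difference in strain cannot be told apart in this comparison. STO cells are 1 line, so the values describe that line and not fibroblasts in general.

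The lamina is a filament mesh under the inner nuclear membrane, built from A-type lamins (lamin A and lamin C, both from Lmna) and B-type lamins (from Lmnb1 and Lmnb2). It anchors peripheral heterochromatin, and the lamin B receptor and lamin A/C are the best known tethers of that chromatin. Early embryonic and neural progenitor nuclei are known for B-type lamins with little A-type lamin, while mesenchymal cells carry much lamin A/C; SUN proteins connect the lamina through nesprins to the cytoskeleton.

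The ends of the lamin proteins tell the forms apart, so the coding ends of lamin A, lamin C and lamin B2 are shown, read from the NCBIM37 (mm9) genome on the minus strand in the coding direction. Capitals in the lamin A and lamin B2 ends mark the last 4 codons before the stop, the CaaX box that is farnesylated. In the lamin C end capitals mark the coding bases found in lamin C only. They begin at the splice donor used for lamin A, and the lower-case bases are shared by both forms. The lamin A end lies in exon 12 at chr3:88285999-88286022, the lamin C end in exon 10 at chr3:88287222-88287257, and the lamin B2 end in exon 12 of Lmnb2 at chr10:80365607-80365630.
lamin A end: agctcccagaacTGCAGCATCATG
lamin C end: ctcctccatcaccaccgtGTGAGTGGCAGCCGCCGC
lamin B2 end: acctcaaggggcTGCCGACTGATG

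Values are FPKM, fragments scaled for transcript length and library depth, so they can be compared between genes. STO cells were set against NSCs with limma on log2(FPKM + 1), fitted over 12277 genes (mean FPKM of 1 or more in either cell type), with Benjamini-Hochberg adjustment over all of them and a threshold of 0.05. Of these genes, 85.7% were called different, 41.9% higher and 43.7% lower in STO cells, so a call alone says little about a gene. Among the 10 lamina and envelope genes, 8 were called, 6 of them higher and 2 lower. In 8 of the 10 the NSC and STO values did not overlap, against 90.0% of all genes tested. With a log2 fold change of at least 1 in size required as well, 38.4% of all genes tested were called, 17.1% higher and 21.3% lower. By that rule Lmna, Sun1, Lbr and Sun2 were higher and Lmnb1 was lower, 5 of the 10. The median log2 fold change of the 10 genes was 0.54, beside -0.023 over all genes tested.

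Implied fragments, derived from the deposited confidence intervals, came to between 15223341 (STO replicate 1) and 22271895 (NSC replicate 2) per library and to between 766 (Lemd3) and 12012 (Lmnb1) per gene and library for the 10 genes. Replicates had a Pearson's r of 0.994 to 0.995 across genes. The 6 NSC markers summed to 3811 to 4028 FPKM in NSCs and to 0.0442 to 0.0724 FPKM in STO cells, where 4 of them were listed at 0. The 6 fibroblast markers summed to 5.05 to 5.12 FPKM in NSCs and to 1352 to 1462 FPKM in STO cells. NSC cultures also carried RNA of 3 astrocyte markers (64.5 FPKM in sum, against 0.150 to 0.219 FPKM in STO cells) and 3 oligodendrocyte markers (122 to 126 against 0.977 to 1.07 FPKM). The 3 neuron markers summed to 13.1 to 14.7 FPKM in NSCs and 7.84 to 8.57 FPKM in STO cells, the 3 haematopoietic markers to 2.15 to 3.10 and 0.928 to 1.05 FPKM, and the 3 endothelial markers to at most 0.503 FPKM in any library. In STO cells the neuron sum was that of Tubb3, with Dcx at most 0.00324 FPKM and Rbfox3 listed at 0. Cd68 held most of the haematopoietic sum, at 2.14 and 3.10 FPKM in NSCs and 0.863 to 0.927 FPKM in STO cells. Ptprc and Aif1 were at most 0.0169 and 0.166 FPKM in any library. The part of other cell types in the values of the lamina genes was not tested, and in bulk RNA fewer cells of a type and less RNA per cell cannot be told apart.

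Lmna (chr3:88285070-88307274), the gene of the A-type lamins, changed most of the 10 genes. It was at 23.1 and 23.0 FPKM in NSC replicates 1 and 2, and at 284, 264 and 263 FPKM in STO replicates 1, 2 and 3. Every STO library lay far above both NSC libraries, and the replicates of each cell type were close to each other. The means were 23.0 ± 0.116 FPKM (SD, n = 2) and 270.3 ± 12.2 FPKM (SD, n = 3), a ratio of 11.7, and the log2 fold change was 3.50 with a 95% interval of 3.35 to 3.64 (limma adjusted p = 2.19e-08). It was larger in size than that of 93.5% of the genes tested.

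Lmnb1 on chromosome 18, which encodes lamin B1, went the other way. Its FPKM was 132 and 126 in the NSC replicates and 49.1, 48.4 and 47.0 in the STO replicates. Both NSC libraries stood clear of all STO libraries. Mean FPKM was 129 ± 3.80 (SD, n = 2) in NSCs and 48.2 ± 1.04 (SD, n = 3) in STO cells, 2.68 times higher in NSCs, and Lmnb1 fell by 1.40 on the log2 scale in STO cells (SE 0.052, limma adjusted p = 8.19e-07).

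Lmnb2 (chr10:80364108-80380990), the gene of lamin B2, had 17.4 and 16.1 FPKM in NSCs and 17.0, 15.9 and 16.7 FPKM in STO cells. The groups overlapped and no difference was called. Its log2 fold change was -0.013 with a 95% interval of -0.16 to 0.13 (limma adjusted p = 0.847), which leaves room for a small difference either way. With each library scaled to the same FPKM sum, as TPM, the value became 0.16 and passed the threshold (limma adjusted p = 0.0463). That scaling moved the median of all genes by 0.16.

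**Figure D1:**
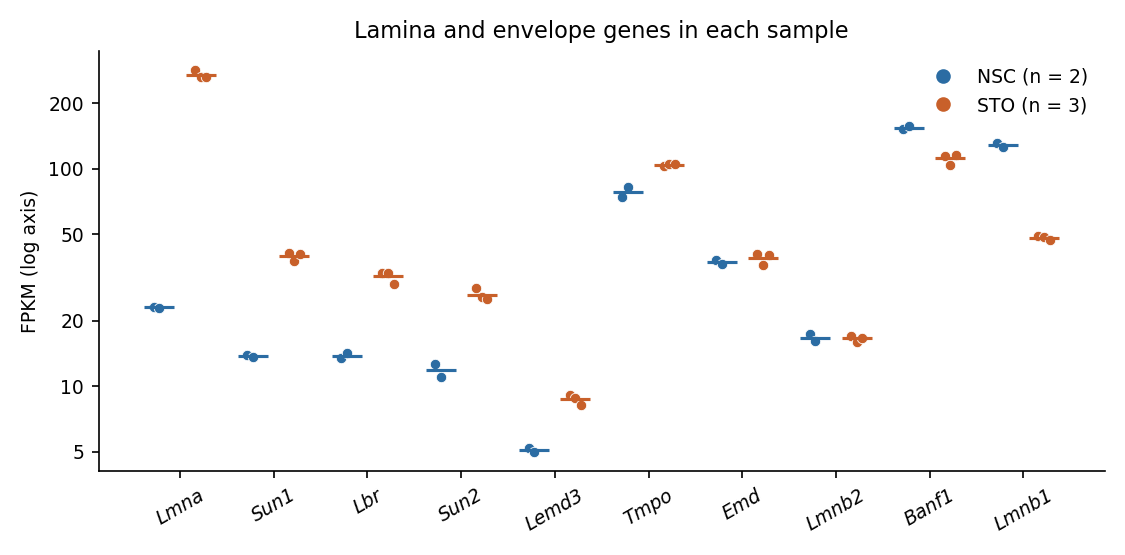
FPKM of the 10 genes on a log axis, with 1 point for each library (NSC, n = 2; STO, n = 3) and a line at each group mean. Lmna rose from 23.0 to 270.3 FPKM and Lmnb1 fell from 129 to 48.2 FPKM between NSCs and STO cells, while the points of Emd and Lmnb2 overlap.

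The ratio of Lmna to the sum of Lmnb1 and Lmnb2 puts A-type against B-type lamin RNA within each library, where depth cancels. It was 0.155 and 0.161 in the NSC replicates and 4.30, 4.10 and 4.12 in the STO replicates. B-type lamin RNA exceeded A-type in both NSC libraries, and A-type exceeded B-type in all 3 STO libraries. The mean ratio was 0.158 ± 0.00433 (SD, n = 2) in NSCs and 4.17 ± 0.111 (SD, n = 3) in STO cells, a log2 difference of 4.72 or 26.4-fold. It was 4.97 against Lmnb1 only, 3.57 against Lmnb2 only, and 3.996 when only the transcript of highest mean was kept for each gene. The two-sided exact permutation test gave p = 0.1, the smallest that 2 against 3 samples allow, and the same p holds for the other 3 ratios given here, 4 in all.

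Lamin RNA in sum was 172 and 165 FPKM in NSCs and 350, 328 and 327 FPKM in STO cells. Lmna made up 13.4% and 13.9% of it in NSCs and 81.1%, 80.4% and 80.5% in STO cells. Lmnb1 took 76.5% and 76.4% in NSCs against 14.0%, 14.8% and 14.4% in STO cells. The leading lamin thus differed between the cell types in every library, with Lmnb2 the smallest share throughout, at 9.72% to 10.1% in NSCs and 4.85% to 5.12% in STO cells.

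Among the B-type lamins, the Lmnb1 to Lmnb2 ratio was 7.58 and 7.86 in NSCs and 2.88, 3.04 and 2.81 in STO cells, with means of 7.72 ± 0.20 (SD, n = 2) and 2.91 ± 0.117 (SD, n = 3). It was 2.65 times higher in NSCs, and Lmnb1 was above Lmnb2 in all 5 libraries.

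The Lmna sum was divided into its deposited transcripts. Exon and codon counts given for them are those of GENCODE models with nearly the same span. NM_001002011 was taken as prelamin A (12 exons, 665 codons) and NM_001111102 as lamin C (10 exons, 574 codons). NM_019390, which starts inside the gene, was taken as the germ cell form lamin C2 (462 codons). Lamin A was at 1.61 FPKM (deposited interval 1.28 to 1.94) and 1.63 FPKM (1.31 to 1.95) in the NSC replicates, and at 124 (118 to 130), 117 (112 to 123) and 114 (109 to 119) FPKM in the STO replicates. Lamin C was at 21.5 (20.0 to 23.0) and 21.3 (19.9 to 22.8) FPKM in NSCs and at 160 (152 to 168), 147 (139 to 154) and 149 (142 to 156) FPKM in STO cells. Lamin C2 was listed at 0 in all 5 libraries.

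Both forms were higher in STO cells, and lamin A by more than lamin C. The lamin A to lamin C ratio was 0.0748 and 0.0764 in NSCs and 0.772, 0.798 and 0.766 in STO cells. Lamin A, the form with the CaaX end shown above, made up 6.96% and 7.10% of Lmna FPKM in NSCs and 43.6%, 44.4% and 43.4% in STO cells. The groups lay far apart relative to the spread within them, and this is given as a description without a test. Cufflinks divides fragments of shared exons between transcripts, so the shares rest on the exons of lamin A only and on the short end of lamin C. The NSC value of lamin A rested on 93 and 103 implied fragments.

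**Figure D2:**
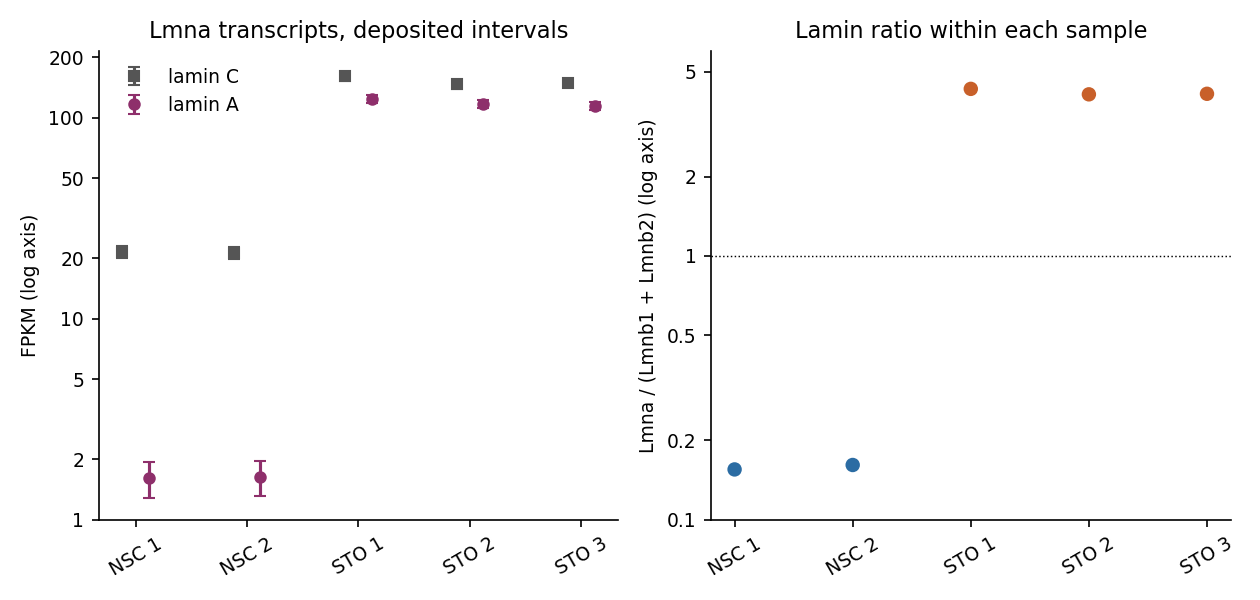
Left, FPKM of the lamin A and lamin C transcripts in each library on a log axis, with bars for the deposited confidence intervals; right, the ratio of Lmna to Lmnb1 and Lmnb2 in each library on a log axis, with a dotted line at 1. Lamin A was at 1.61 and 1.63 FPKM in NSCs and at 114 to 124 FPKM in STO cells, and the lamin ratio was at 0.155 and 0.161 in NSCs and at 4.10 to 4.30 in STO cells.

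The 3′ UTR is a further part that lamin A and lamin C do not share, and miR-9 is a neural microRNA known to target the lamin A UTR. It was looked at after the values of the transcripts were seen. Mature mmu-miR-9-5p from RefSeq is shown with its seed, bases 2 to 8, in capitals, and below it the single seed match, also in capitals, of the lamin A UTR. The match begins at base 282 after the stop codon, and the printed stretch lies at chr3:88285707-88285728 (mm9, minus strand).
mmu-miR-9-5p: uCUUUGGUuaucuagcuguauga
lamin A site: gtatctgccttaaaACCAAAGg
The lamin A part of the UTR spans 926 bases and the lamin C part 92 bases, which held no match. A match in the first 926 bases was present in 9.01% of genes with a UTR of that length or more, and in the first 92 bases in 0.884%. Mature microRNAs are not measured by these libraries, and the rows of Mir9-1, Mir9-2 and Mir9-3 were listed at 0 in all 5 libraries. Mir9-3hg, the host transcript of Mir9-3, was at 10.8 and 12.5 FPKM in NSCs and listed at 0 in the 3 STO libraries. C130071C03Rik, which spans Mir9-2, was at 31.3 and 24.7 FPKM in NSCs and at 0.189, 0.119 and 0.239 FPKM in STO cells. Both host transcripts were higher in NSCs, where lamin A was low, as holds for any transcript higher in NSCs than in STO cells. Lamin C, whose UTR part held no match, was also lower in NSCs, with means of 21.4 FPKM in NSCs and 152 FPKM in STO cells. The part of miR-9 or its hosts in the lamin values was not tested.

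The window around the shared start of lamin A and lamin C, from 250 bases before to 50 after a RefSeq start, is shown because the transcripts from this start held all the Lmna FPKM. RefSeq's sequence (GRCm38.p6) was placed on mm9 by its letters at chr3:88307225-88307524, minus strand. Capitals mark a GC box (GGGCGG, here on the other strand) and an AP-1 element (TGACTCA). The GC box lies before the start, and the AP-1 element lies after it, within the last 50 bases of the window.
Lmna start: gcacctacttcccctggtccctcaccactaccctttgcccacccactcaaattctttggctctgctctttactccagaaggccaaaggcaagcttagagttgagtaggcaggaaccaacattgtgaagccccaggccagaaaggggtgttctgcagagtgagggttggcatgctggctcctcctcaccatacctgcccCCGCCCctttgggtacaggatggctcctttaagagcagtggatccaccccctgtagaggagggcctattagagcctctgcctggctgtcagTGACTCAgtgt
Motifs were searched on both strands in 14 windows of 9 of the 10 genes (Lmnb1 was not matched) and were chosen after the sequences were seen. A GC box was in 10 of the 14 windows and in at least 1 window of all 9 genes, and in 35.7% of 32851 windows of all genes. CCAAT was in 9 windows of 8 genes, with Lmnb2 the exception, and in 37.4% of all windows. For Lmna it was found in the window of the internal lamin C2 start (chr3:88297185-88297484, mm9), whose transcript was listed at 0, and not in the window shown. Of the 14 windows, TGACTCA was in the Lmna window shown only, and in 5.20% of all windows. TATAAA was in 1 window, of Sun1, and in 13.6% of all, and the E2F elements TTTGGCGC and TTTCGCGC were in none of the 14 and in 0.813% of all.

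Lbr (chr1:183745446-183772532) encodes the lamin B receptor, a membrane protein that binds B-type lamins and heterochromatin and also acts as a sterol reductase. Its FPKM was 13.4 and 14.2 in NSCs and 33.1, 33.2 and 29.4 in STO cells. All STO libraries lay above both NSC libraries. Means were 13.8 ± 0.531 FPKM (SD, n = 2) and 31.9 ± 2.13 FPKM (SD, n = 3), and the log2 fold change was 1.15 with a 95% interval of 0.98 to 1.33 (limma adjusted p = 9.57e-06). Lbr rose with Lmna, but by less.

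The ratio of Lmna to Lbr, which compares RNA of the chromatin tethers, was 1.72 and 1.62 in NSCs and 8.59, 7.95 and 8.93 in STO cells. Lmna thus exceeded Lbr in every library. The mean ratio was 1.67 ± 0.0729 (SD, n = 2) against 8.49 ± 0.493 (SD, n = 3), 5.07-fold higher in STO cells, a log2 difference of 2.34, which became 1.62 when only the transcript of highest mean was kept for each gene.

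The LEM-domain proteins emerin, LAP2 and MAN1 bind lamins and the small DNA-binding protein BAF, encoded by Banf1. Emd (chrX:71500026-71503232), the emerin gene, was at 37.8 and 36.2 FPKM in NSCs and at 40.4, 35.9 and 39.9 FPKM in STO cells. The groups overlapped, and the log2 fold change was 0.061 with a 95% interval of -0.11 to 0.23 (limma adjusted p = 0.425). On the TPM scale it became 0.23 and was called (limma adjusted p = 0.00978), beside the shift of 0.16 in all genes.

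Tmpo (chr10:90610316-90634364), the LAP2 gene, had 74.1 and 82.0 FPKM in NSCs and 103, 105 and 105 FPKM in STO cells. STO cells were higher without overlap, by a log2 fold change of 0.41 with a 95% interval of 0.26 to 0.56 (limma adjusted p = 0.000793). Of its 6 transcripts, 3 were listed at 0 in every library. LAP2 alpha is the soluble nucleoplasmic form that partners lamin A/C. It was taken as NM_011605, whose span is close to that of a GENCODE model with 4 exons and 693 codons. LAP2 alpha was at 15.3 and 17.1 FPKM in NSCs and at 30.9, 31.9 and 32.0 FPKM in STO cells. It made up 20.7% and 20.9% of Tmpo in NSCs and 30.1%, 30.4% and 30.6% in STO cells. NM_001080129 led in both cell types, at 43.4 and 48.7 FPKM in NSCs and 71.9, 73.1 and 72.7 FPKM in STO cells. NM_001080130 was at 15.4 and 16.2 FPKM in NSCs and was listed at 0 in the 3 STO libraries. It has the same span as NM_001080129, and the values of both rest on how Cufflinks divided shared fragments.

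Lemd3 (chr10:120360467-120416386) encodes MAN1, which also binds SMAD proteins, and was the lowest of the 10 genes in both cell types. It was at 5.17 and 4.98 FPKM in NSCs and at 9.07, 8.84 and 8.16 FPKM in STO cells. STO cells were higher in every library, by a log2 fold change of 0.67 with a 95% interval of 0.52 to 0.83 (limma adjusted p = 7.61e-05).

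Banf1 (chr19:5364633-5366876) was the highest of the 10 genes in NSCs and fell in STO cells. Its FPKM was 152 and 156 in NSCs and 115, 104 and 116 in STO cells. The groups did not overlap, and Banf1 fell by 0.47 on the log2 scale (SE 0.068, limma adjusted p = 0.000691). Its transcripts differed as well, though they share most of the locus and their values rest on how Cufflinks divided shared fragments. NM_011793 held all of the Banf1 value in NSCs and 80.4, 67.8 and 87.2 FPKM in STO cells, while NM_001038231 was listed at 0 in both NSC libraries and held 34.3, 36.0 and 28.7 FPKM in STO cells, 24.7% to 34.7% of the gene.

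SUN proteins span the inner nuclear membrane and meet the nesprins of the outer membrane, forming the LINC complex. Sun1 (chr5:139676591-139725793) was at 13.9 and 13.6 FPKM in NSCs and at 41.0, 37.5 and 40.3 FPKM in STO cells, a log2 fold change of 1.46 with a 95% interval of 1.32 to 1.60 (limma adjusted p = 1.18e-06). Sun2 (chr15:79554498-79572966) was at 12.6 and 11.0 FPKM in NSCs and at 28.1, 25.7 and 25.0 FPKM in STO cells, a log2 fold change of 1.09 with a 95% interval of 0.90 to 1.29 (limma adjusted p = 2.33e-05). Both SUN genes rose in STO cells, with no overlap between the groups.

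The Sun2 to Sun1 ratio was 0.908 and 0.807 in NSCs and 0.686, 0.686 and 0.621 in STO cells, a log2 difference of -0.37. Every ratio was under 1, so Sun1 led in all 5 libraries. Taken from the transcript of each gene with the highest mean over all 5 libraries, the log2 difference was -1.85. For Sun1 that choice fell on NM_024451, which led in STO cells but not in NSCs, so the value follows in part from the choice. Among Sun1 transcripts, NM_024451 was at 3.35 and 4.22 FPKM in NSCs and at 29.0, 24.8 and 28.2 FPKM in STO cells. Its share was 24.1% and 31.0% in NSCs and 66.2% to 70.8% in STO cells, so that it led in STO cells. NM_001359494 had the highest value in NSCs, at 4.03 and 4.74 FPKM, but its deposited intervals overlapped those of NM_024451 in both libraries. NM_001256117 was at 2.92 FPKM in NSC replicate 1 and listed at 0 in NSC replicate 2. As for Lmna, these shares rest on how Cufflinks divided shared fragments. Sun2 was divided between NM_001205345, at 8.20 and 6.42 FPKM in NSCs and 16.7, 14.1 and 13.2 FPKM in STO cells, and NM_001205346, at 4.41 and 4.58 FPKM in NSCs and 7.24, 11.6 and 9.12 FPKM in STO cells. NM_194342 of Sun2 appeared in 2 of the 3 STO libraries, at 4.18 and 2.66 FPKM, and was listed at 0 in the other 3 of all libraries. Over the 10 genes, 9 of 29 deposited transcripts were listed at 0 in every library.

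**Figure D3:**
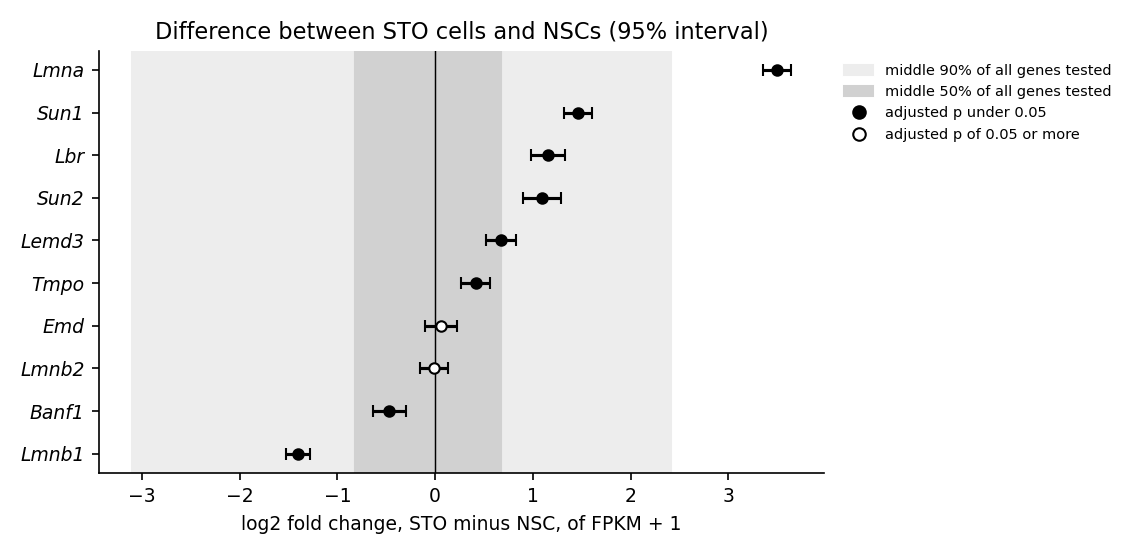
Log2 fold change of the 10 genes, STO minus NSC, of FPKM + 1, with 95% intervals from limma; filled points have an adjusted p under 0.05, and grey bands show the middle 50% and 90% of all genes tested. Lmna at 3.50 lies above the wider band, Sun1, Lbr, Sun2 and Lmnb1 lie between the bands, and the other 5 lie in the inner band; under TPM scaling Lmnb2 changed sign to 0.16.

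Ordered by mean FPKM, NSCs had Banf1 first, then Lmnb1, Tmpo, Emd, Lmna, Lmnb2, Lbr, Sun1, Sun2 and Lemd3. Neighbours in that order did not overlap except Lbr and Sun1. In STO cells the order was Lmna, Banf1, Tmpo, Lmnb1, Sun1, Emd, Lbr, Sun2, Lmnb2 and Lemd3, where Banf1 overlapped with Tmpo and Sun1 with Emd. Lmna moved from the fifth place to the first.

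The genes most like Lmna over the 5 libraries, by Euclidean distance of log2(FPKM + 1) after each gene's mean was subtracted, were Rarg at 0.0536, Aqp1 at 0.0659 and Arhgap22 at 0.0699. Rarg, a retinoic acid receptor gene, was at 3.37 and 3.43 FPKM in NSCs and at 47.7 to 49.6 FPKM in STO cells. As the 5 libraries fall into 2 groups, the distance compares little beyond that 1 difference.

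Prelamin A and B-type lamins are farnesylated, cleaved and methylated at the CaaX end. Of 5 genes for these steps, 3 rose and 1 fell, beside 41.9% and 43.7% of all genes tested. The other 1 did not pass the test, and the median log2 fold change was 0.52. Zmpste24, the protease that cuts prelamin A, was at 21.0 and 20.8 FPKM in NSCs and at 54.8, 59.8 and 59.2 FPKM in STO cells (log2 fold change 1.43, limma adjusted p = 1.27e-06). Icmt, the carboxyl methyltransferase, was at 6.05 and 6.82 FPKM in NSCs and at 17.3, 16.8 and 16.7 FPKM in STO cells (log2 fold change 1.27, limma adjusted p = 3.31e-06). Rce1, a CaaX protease, rose by 0.52 on the log2 scale. Fntb, the beta subunit of farnesyltransferase, was lower in STO cells, with 14.7 and 16.1 FPKM in NSCs and 6.98, 7.37 and 7.44 FPKM in STO cells (log2 fold change -0.99, limma adjusted p = 1.05e-05). Fnta, its alpha subunit, had a log2 fold change of -0.010 (limma adjusted p = 0.893).

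All 3 regulators of BAF were called, 2 higher and 1 lower, beside 85.7% of all genes tested. Vrk2, a kinase of the nuclear envelope and endoplasmic reticulum that phosphorylates BAF, was listed at 0 and at 0.63 FPKM in NSCs and was at 7.11, 6.32 and 7.61 FPKM in STO cells. Ankle2, which recruits a phosphatase to BAF, rose by a log2 fold change of 0.81, and Vrk1, the nuclear BAF kinase, fell by 0.45 on the log2 scale.

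Of 10 further LINC and torsin genes, 7 were tested, 3 rose and none fell, beside 41.9% and 43.7% of all genes tested. Their median log2 fold change was 0.085. Syne3, the gene of nesprin-3, which binds plectin and thereby intermediate filaments, was at 0.24 and 0.22 FPKM in NSCs and at 7.37, 7.06 and 6.64 FPKM in STO cells (log2 fold change 2.70, limma adjusted p = 6.14e-08). Syne2 rose by 0.57 and Tor1b by 0.46 on the log2 scale, and 5 of the list rose under TPM scaling. Syne4 stayed under the low-value filter, and Sun3 and Sun5, which are testis genes, were listed at 0 in all libraries.

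Of 17 other inner membrane protein genes, 15 were tested, of which 8 rose and 5 fell, beside 41.9% and 43.7% of all genes tested. Their median log2 fold change was 0.19. Tmem120a was at 7.17 and 6.22 FPKM in NSCs and at 34.1, 30.6 and 36.3 FPKM in STO cells (log2 fold change 2.17). Tmem120b and the LEM-domain gene Lemd2 rose by 0.88 and 0.84. Plpp7 fell by 2.99, Tmem38a fell by 2.22 and Tmem201, the gene of SAMP1, fell by 1.30 on the log2 scale. Tmem201 was at 24.9 and 27.1 FPKM in NSCs and at 10.3, 9.95 and 9.67 FPKM in STO cells. Lemd1 and Mlip, the gene of a lamin-interacting protein of muscle, did not pass the filter.

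Nuclear pore genes moved mostly upward: 21 of 29 rose and 4 fell, beside 41.9% and 43.7% of all genes tested. The other 4 did not pass the test, and the median log2 fold change was 0.67. By a log2 fold change of at least 1 in size, 6 rose and 1 fell, beside 17.1% and 21.3% of all genes tested. Nup54 rose by 1.66, Ahctf1, the gene of ELYS, by 1.57 and Nup98 by 1.47. Nup210, the gene of a pore membrane protein, was at 16.2 and 16.7 FPKM in NSCs and listed at 0 in all 3 STO libraries, so no fold is given. Nup35 fell by 0.49 and Seh1l fell by 0.32 on the log2 scale.

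The 12 genes of heterochromatin proteins that meet the lamina were split, with 5 higher, 4 lower and 3 not called. Of all genes tested, 41.9% were higher and 43.7% lower, and the median log2 fold change of the 12 was -0.026. Ehmt2 (G9a) rose by 0.81, Trim28 by 0.41 and Suv39h1 by 0.24, while the HP1 genes Cbx3, Cbx1 and Cbx5 fell by 0.74, 0.67 and 0.50 on the log2 scale. Only 3 of the 12 were higher with quantile or median-ratio scaling, with the replicate block, or without NSC replicate 1, NSC replicate 2 or STO replicate 2, and 2 were lower with TPM scaling or with no filter on low values.

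Of 9 genes of proliferation and arrest, 3 rose and 3 fell, beside 41.9% and 43.7% of all genes tested. The other 3 (Mcm2, Cdk1 and Cdkn2a) were not called, and the median log2 fold change was 0.010. With TPM scaling 5 of the 9 rose and 3 fell. Mki67 was at 47.9 and 55.4 FPKM in NSCs and at 80.3, 85.6 and 84.8 FPKM in STO cells (log2 fold change 0.69), and Top2a rose by 0.55 and Mcm5 by 0.23. The arrest gene Cdkn1a was at 262 and 249 FPKM in NSCs and at 110, 101 and 106 FPKM in STO cells and fell by 1.26 on the log2 scale, while Pcna fell by 0.78 and Ccnb1 by 0.34.

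**Figure D4:**
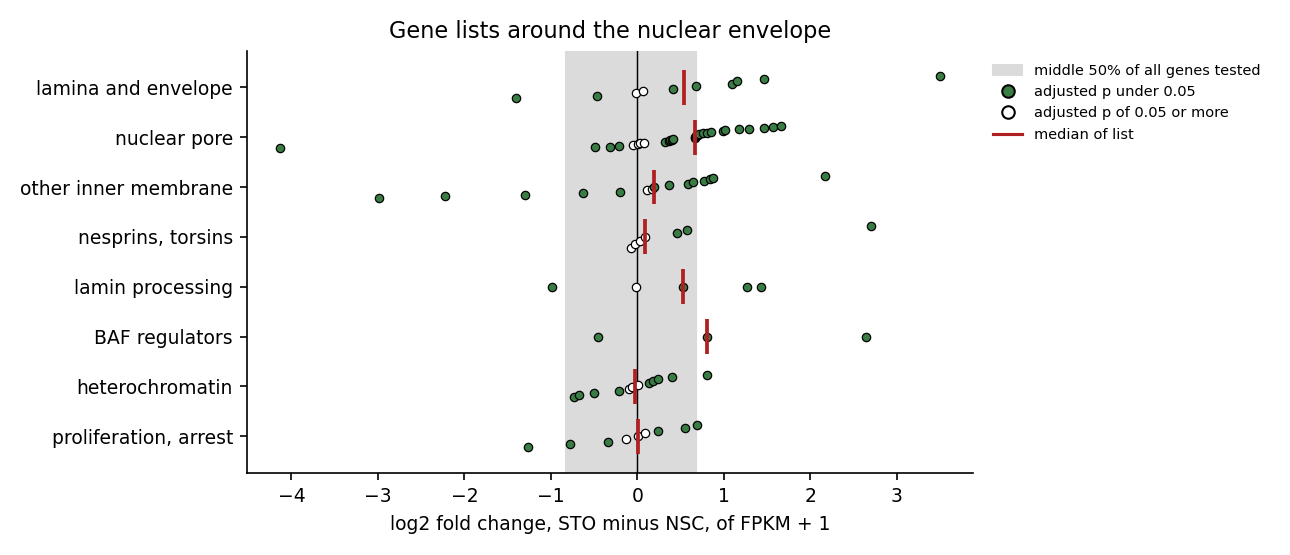
Log2 fold change, STO minus NSC, of FPKM + 1 for each tested gene of the 10 lamina and envelope genes and of 7 lists around them; filled points have an adjusted p under 0.05, red bars are medians, and the grey band holds the middle 50% of all genes tested. Medians run from -0.026 for heterochromatin to 0.81 for the 3 BAF regulators; the lowest nuclear pore point is Nup210, listed at 0 in STO cells, whose position depends on the pseudocount, and with TPM scaling the median of all genes moves up by 0.16.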

How the data were processed

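The authors prepared stranded mRNA libraries (KAPA), aligned paired reads to mm9 and ran Cufflinks with RefSeq transcripts; the submitters' processing notes name HISAT2 4.8.2 and Cufflinks 2.2.1. They deposited FPKM with confidence bounds, also in FPKM, for 40201 transcripts per library, with depth and length already divided out. Symbols were matched for 39951 transcripts (99.4%) through a RefSeq table of GRCm38.p6, used for names only, and FPKM was summed per symbol. Implied fragments were taken from the bounds, read as 2 Poisson standard deviations, and cover counting error only. An exact 0 can also be a failed estimate.

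Genes were tested on log2(FPKM + 1) by lmFit and trended eBayes of limma 3.58.1 (R 4.3.3), a scale that understates changes of low genes. The script was tested on simulated data in which few genes changed, so that test does not cover data where most genes are called, as here. Python 3.11.15 did the rest; GENCODE vM1 gave exons. Labels do not say whether replicates are separate cultures, so p-values measure the spread between these samples. The 10 genes, the lists and the tests were chosen with earlier results of these data known. All 10 genes were named, and from each other list up to 3 called genes with the largest rise and 3 with the largest fall, with genes at 0 or under the filter; Fnta, named as the partner of Fntb, the uncalled Mcm2, Cdk1 and Cdkn2a, and the miR-9 hosts were chosen after their values were seen.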

Additional observations from a re-analysis of the deposited data

How the results depend on the processing

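All 8 called genes kept their direction and call in each of 14 alternatives (pseudocount, filter, scaling, trend, replicate block, transcript status and each replicate left out), with a highest limma adjusted p of 0.018, for Banf1. Lmnb2 became 0.16 and Emd 0.23 with TPM scaling, both called. Without 1 replicate, Lmnb2 ran from -0.066 to 0.040, above 0 without NSC replicate 1 (0.040) or STO replicate 2 (0.014). The log2 difference of the Lmna to Lmnb ratio was 4.97 with Lmnb1 only, 3.57 with Lmnb2 only and 4.65 with FPKM + 1. With only the transcript of highest mean per gene it was 3.996, that of Lmna to Lbr 1.62 and that of Sun2 to Sun1 -1.85. The Sun1 transcript so chosen led in STO cells but not in NSCs, so the last value follows in part from the choice. Requiring a log2 fold change of at least 1 in size left 2099 genes higher, 2613 lower and 1 of the 10 lower. Labels number replicates 1 and 2 in both cell types, but nothing in them pairs the numbers, so a number is not taken as a pair. Deviations of same-numbered samples had correlations of 0.0058 and 0.064, and those of unlike-numbered samples ran from -0.064 to 0.055. With 2 NSC replicates these deviations mirror each other, so the correlations cannot show whether samples were paired. With the replicate block, 4988 genes were higher and 5249 lower, against 5147 and 5371 without it, and no call among the 10 changed. Leaving out 1 replicate gave 4703 to 5060 higher and 4899 to 5248 lower; without an NSC replicate the lone NSC sample is assumed to vary like STO. Low values rest on few fragments, such as lamin A in NSCs (93 and 103), and 2 against 3 samples allow no permutation p under 0.1.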
